A study of Mus musculus with 46 samples.

Results

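The regions described here are the anti-LMO2 ChIP-seq peaks listed in DN3 thymocytes of LMO2 transgenic mice at places where the wild-type DN3 list has none. They were chosen by position alone, as every peak of the transgenic DN3 list that shares not even 1 bp with a peak of the wild-type DN3 list. This gave 2217 of the 2239 transgenic DN3 peaks, and 25269 peaks are listed over all 5 ChIP libraries of the series. Below, these 2217 regions are called the transgenic-only peaks. Absence from the wild-type list is absence of a call, and signal at uncalled places was not analysed here.

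The mice were C57BL/6. The control mice were labelled wild type, and the transgenic mice were labelled hCD2-LMO2 knock-in, so that control elements of human CD2, a gene of T cells, drive LMO2. The DN3 ChIP cells were primary CD25+ double-negative (CD4-negative, CD8-negative) thymocytes obtained by sorting, and the peak names in the DN3 lists carry the tag DN2_3, so the sorted cells may hold both the DN2 and the DN3 step. The labels of the RNA libraries call the cells DN3. Each ChIP list comes from 1 library, namely wild-type DN3, transgenic DN3, transgenic double-positive thymocytes (DP), transgenic splenic CD4 T cells and transgenic splenic CD8 T cells. RNA of DN3 cells was counted in 3 libraries per genotype, and nothing in the labels says whether these came from separate mice, so p-values measure only the spread between these libraries.

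LMO2 is a small LIM-domain protein that does not itself contact DNA. It joins LDB1 to basic helix-loop-helix factors such as TAL1, LYL1 and the E proteins, and to GATA factors, and so sits on DNA through its partners, typically at E-box and GATA motifs. It is needed in blood stem cells, is switched off as thymocytes commit to the T lineage, and causes T-cell leukaemia when it stays on. Base sequences and nearby genes of the peaks are not given, because the peak names place the coordinates in build mm9 and no genome of that build was used here.

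The targeted gene was measured first, in RNA. Lmo2 (identifier 16909) stood at 27.4, 21.6 and 20.5 CPM (read counts scaled to a common library size) in the transgenic DN3 libraries and at 0.308, 0.236 and 0.225 CPM in the wild-type ones. The groups did not overlap, and the log2 fold change was 6.47 ± 0.24 (SE, n = 3 per group, adjusted p = 9.99e-07, quasi-likelihood test of edgeR, Benjamini-Hochberg over all genes tested). Per length, the authors' FPKM values of Lmo2 were 17.4, 13.7 and 13.1 in transgenic cells and 0.230, 0.180 and 0.160 in wild-type cells. Over all 12037 genes tested, 2822 (23.4%) were higher and 2675 (22.2%) lower in transgenic DN3 cells, 5497 in all. With all RNA groups of the series in 1 fit the total was 2644.

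The proteins that hold LMO2 on DNA differ widely in how much RNA these cells had for them. Of 18 listed partners and cofactors, 15 had enough counts to be tested, 11 were higher and 4 were lower in transgenic cells, with a median log2 fold change of 0.72 against -0.03 over all genes tested. Lyl1, the helix-loop-helix partner, was at 94.97, 110 and 176 CPM in transgenic libraries and at 0.347, 0.709 and 2.52 CPM in wild-type ones, a log2 fold change of 6.72 ± 0.60 (adjusted p = 2.1e-04, edgeR). Tal1, the related partner of LMO2 in red cell precursors and leukaemia, was too low to test, at 0.554, 0.111 and 0.0386 CPM in transgenic libraries and 0.308, 0.158 and 0.601 CPM in wild-type ones. Per length, Lyl1 stood at FPKM values of 55.5, 64.4 and 103 and Tal1 at 0.140, 0.0300 and 0.0100 in the same transgenic cells, so nearly all RNA of this pair came from Lyl1.

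The E proteins Tcf12 and Tcf3, which pair with LYL1 on E-boxes, rose by log2 fold changes of 1.05 ± 0.15 and 0.41 ± 0.10. The third E protein gene, Tcf4, went the other way (-0.74 ± 0.13). Gata3, the GATA factor of T cells, rose by 0.85 ± 0.10, from 129, 112 and 125 CPM to 229, 206 and 225 CPM. Gata1 was also higher, at 5.69, 5.48 and 3.93 CPM against 3.35, 2.29 and 3.31 CPM, and Gata2 was too low to test. Ldb1, the subunit that links complexes to each other, was slightly lower (-0.30 ± 0.10, adjusted p = 0.043, edgeR), while its relative Ldb2 was at 0 in all transgenic libraries. Among factors often found beside LMO2, Erg rose most (2.12 ± 0.19), and Runx1 (0.85 ± 0.13), Fli1 (0.72 ± 0.10) and the corepressor Cbfa2t3 (0.89 ± 0.13) rose as well. Together with Cbfa2t2 (0.72 ± 0.14) and Ssbp3 (0.44 ± 0.10) these are the 11 that rose, and Ssbp2 (-0.66 ± 0.11) and Ssbp4 (-0.52 ± 0.11) complete the 4 that fell.

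Markers of the labelled cell type were present in both genotypes. Il2ra, which encodes the CD25 used for sorting, was at 1528, 1486 and 1494 CPM in transgenic and 1165, 1304 and 1097 CPM in wild-type libraries. Of 10 genes listed as high in DN3 cells, 4 rose (Il2ra, Notch1, Dtx1 and Erg), 5 fell (Ptcra, Rag1, Rag2, Cd3g and Hes1) and Cd3e did not pass the test. Ptcra, the pre-T-cell receptor chain typical of the stage, fell by 3.11 ± 0.35 on the log2 scale, and Rag2, needed to rearrange receptor genes, fell by 2.95 ± 0.30. Of the pair listed as low in DN3 cells, Kit, which marks the steps before it, rose by 2.52 ± 0.20, and Cd44 was at 2.36 to 4.47 CPM in all 6 libraries. Summed mast cell markers were 76.6 to 133 CPM in wild-type and 768 to 1299 CPM in transgenic libraries. Of 4 listed, 3 had enough counts to be tested, and all 3 were higher in transgenic cells. The mast cell receptor gene Fcer1a was at 0 in all 6 libraries. Cpa3 and Kit, which early thymocytes also express, make up most of the sum. Of the B cell genes, Cd79b fell from 35.2, 25.4 and 34.3 CPM to 7.94, 10.4 and 12.9 CPM, while Cd79a did not pass the test (0.83 ± 0.43) and Ms4a1 and Pax5 were too low to test. Summed myeloid markers were 12.6 to 16.7 CPM in wild-type and 4.40 to 6.51 CPM in transgenic libraries; of 3 tested, Lyz2 and Cd68 fell and Itgam rose (0.93 ± 0.32). The part of cell makeup in the peak lists was not tested, and in bulk cells a change in the cells present and a change per cell cannot be told apart.

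Most transgenic-only peaks were narrow and shallow. Their median width was 50 bp, which is also the lowest width, and 1273 (57.4%) had that width, while 138 (6.22%) were wider than 100 bp and the widest spanned 499 bp. The deposited fold, the ratio of the signal at the peak's highest point to the peak caller's background there, ran from 1.60 to 14.997 with a median of 3.53 and quartiles of 3.08 and 4.11. Which library served as the caller's control for each genotype was not given in the sources used here, and both the folds and the make-up of the 2 DN3 lists depend on it. The deposited -log10 p, also the authors' value, had a median of 3.76, a lowest value of 2.01 and a highest of 28.5. After the caller's own correction over the genome, 356 (16.1%) had a -log10 q above 0, and 66 (2.98%) reached 1.3, a q of about 0.05. These values come from the lists that chose the peaks, so they describe them and test nothing.

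The deposited folds fall on a few repeated values, which makes the reads behind them visible. In the transgenic DN3 list, 623 of 2239 peaks (27.8%) had exactly the fold 3.53235, 432 (19.3%) had 4.10557 and 347 (15.5%) had 2.95913, steps of 0.573 apart. Each step is worth 1 fragment. Solving the deposited fold and p together for the number of fragments that overlap the summit gave a solution for 100% of the peaks. Of the transgenic-only peaks, 384 (17.3%) rested on 4 fragments, 751 (33.9%) on 5, 551 (24.9%) on 6 and 232 (10.5%) on 7. Together 1918 (86.5%) rested on 4 to 7 fragments, 134 (6.04%) on 10 or more and 28 (1.26%) on 20 or more. The deepest, on chromosome 15, had 52. It was not among the peaks with a -log10 q of at least 1.3, which had 31 at most.

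**Figure D1:**
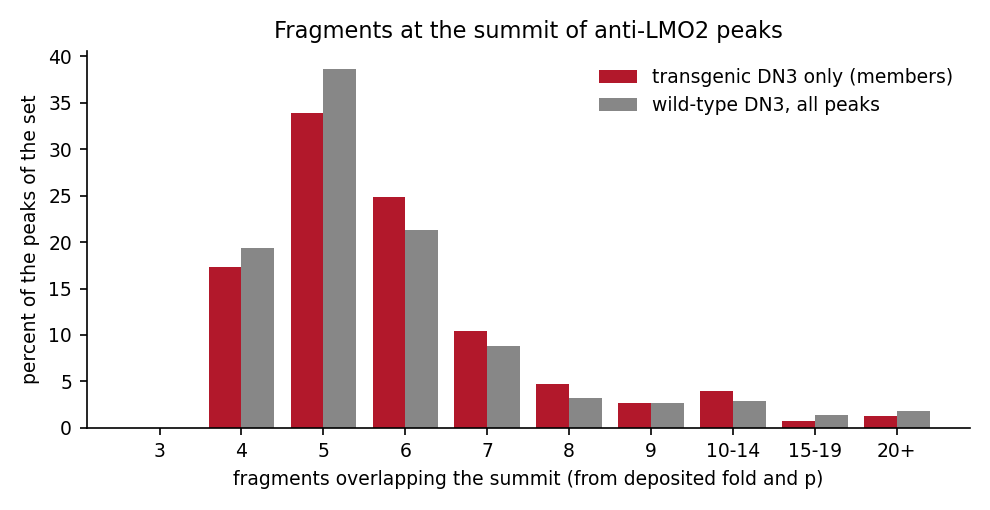
Percent of the transgenic-only peaks (red, 2217) and of all wild-type DN3 peaks (grey, 724) by the number of fragments overlapping the summit, solved from the deposited fold and p. Both sets have their highest bar at 5 fragments, and 86.5% of the transgenic-only and 88.1% of the wild-type peaks lie between 4 and 7.

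The plot of fragments at the summit shows a similar make-up of the wild-type list. The 702 wild-type peaks with no transgenic overlap (97% of 724) had a median of 5 fragments, 634 (90.3%) had 4 to 7, and 34 (4.84%) had 10 or more. Their median deposited -log10 p was 3.76, and their highest was 11.1. The transgenic-only peaks had the same median, but 3.76 is a repeated value in both DN3 lists, so its equality adds little to the equal median of 5 fragments. Their median fold was 3.53, and that of the wild-type peaks with no transgenic overlap was 3.99. These wild-type peaks reached a -log10 q of 1.3 in 3 cases (0.427%), against 66 (2.98%) of the transgenic-only peaks. With 1 library per genotype there is no replicate against which these shares could be tested. Under the same solution the transgenic DN3 library was 1.16 times as large as the control it was called against, and the wild-type DN3 library equalled its control in size to within 1%. The background level common to most peaks was solved at 0.501 in both lists, and whether 1 control served both was not given. Read totals of the ChIP libraries are not in the files used here, so the part of depth in the lengths of the lists was not tested.

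The rule kept 99% of the transgenic DN3 peaks, and the 22 it left out were of another make. Their median was 16 fragments at the summit, 16 of them (72.7%) had 10 or more, and 9 (40.9%) reached a -log10 q of 1.3. The highest fold in the whole transgenic DN3 list, 15.1 with a -log10 p of 32.8 and 34 fragments, lies among these 22, at chr9:88448071-88448146, where the wild-type list has a peak of fold 7.48. Closest to the edge of the rule, a peak at chr5:37052223-37052286 was left out for an overlap of 20 bp, and one at chr10:7236307-7236387 was kept at 4 bp from a wild-type peak. In all, 13 transgenic-only peaks lay within 1 kb of a wild-type peak and 59 within 10 kb.

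The strongest transgenic-only peaks were a small set spread over the genome. The 66 with a -log10 q of at least 1.3 lay on 21 chromosomes (1 to 19, X and the mitochondrial genome), with a median fold of 6.97, a median width of 75 bp and 10 to 31 fragments at the summit. The same 10 peaks lead by fold and by -log10 p. The first is chr2:60240820-60240891, 72 bp wide, with fold 14.997, -log10 p 27.9 and 25 fragments. Next come chr1:12634858-12634932 (fold 13.8, -log10 p 28.5), chr10:71759941-71760083 (12.7 and 23.0) and chr8:125244369-125244489 (12.1 and 21.4). They are followed by chr2:16604711-16604768 (fold 12.1), chr5:114623112-114623169 (11.6), chr1:45008066-45008131 (10.8), chr16:10288150-10288256 (10.4), chr9:19379878-19379951 (10.4) and chr15:58426491-58426658 (9.84, a value that other peaks on chromosomes 7 and 16 share). All 10 rest on 16 to 31 fragments, where the median transgenic-only peak has 5.

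Width and strength did not go together at the top. The widest, chr12:114662939-114663437 (499 bp), had a fold of 4.92, and its neighbour chr12:114662523-114662858 (336 bp) one of 2.78. The third widest, chr17:39981033-39981367 (335 bp), had 36 fragments at its summit and the lowest fold of all, 1.60, over a high local background. At the weak end, chr4:146867692-146867783 had a -log10 p of 2.01 on 4 fragments, and chr5:147072844-147072893 one of 2.03 on 23 fragments over a high background.

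LMO2 peaks of the other transgenic T cells were not used by the rule, so they show how often the same places were called again. Of the transgenic-only peaks, 14 (0.631%, exact 95% interval 0.346 to 1.06) overlapped a DP peak, 12 (0.541%, 0.280 to 0.944) a splenic CD4 peak and 22 (0.992%, 0.623 to 1.499) a splenic CD8 peak. Over all transgenic DN3 peaks these shares were 0.849%, 0.804% and 1.3%. Any of the 3 lists was met by 43 (1.94%, 1.41 to 2.60), 2 of them by 5, and all 3 by 0 of 2217, which allows a share of up to 0.135% (3 counts of the total; the exact interval ends at 0.166%). The intervals and this limit cover counting error only. Seen from the other lists, 13 of 1225 DP peaks (1.06%), 12 of 816 splenic CD4 peaks (1.47%) and 22 of 20265 splenic CD8 peaks (0.109%) overlapped a transgenic-only peak.

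**Figure D2:**
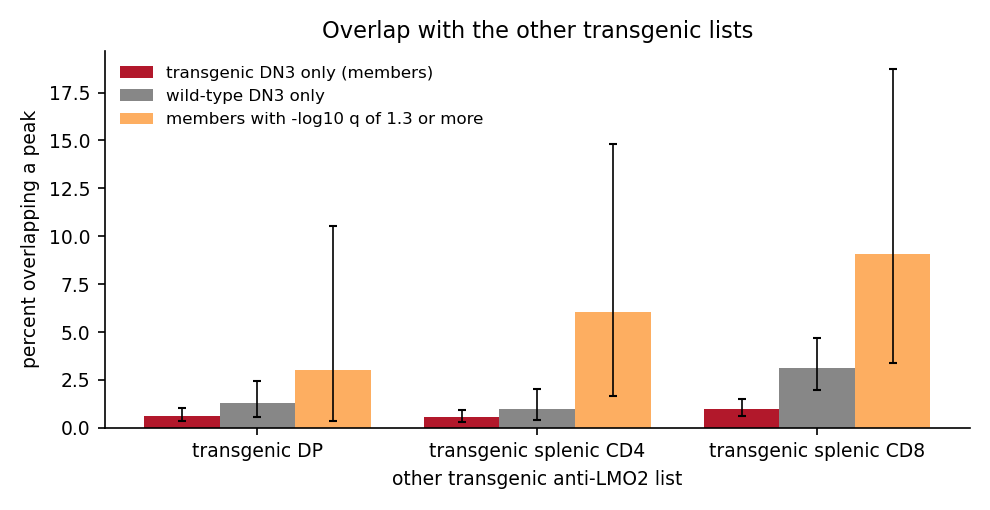
Percent of the transgenic-only peaks (red), of the wild-type-only DN3 peaks (grey) and of the 66 transgenic-only peaks with a -log10 q of at least 1.3 (orange) that overlap a peak of each other transgenic list by 1 bp or more, with exact 95% binomial intervals. The red bars lie below 1%, the grey bars at 1.28%, 0.997% and 3.13%, and the orange bars at 3.03%, 6.06% and 9.09%.

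Beside these shares, the wild-type-only peaks met the transgenic lists in larger shares: 9 of 702 (1.28%, 0.588 to 2.42) overlapped DP, 7 (0.997%, 0.402 to 2.04) splenic CD4 and 22 (3.13%, 1.97 to 4.71) splenic CD8 peaks, and 34 (4.84%, 3.38 to 6.70) any of them. For splenic CD8 and for any list the interval of the wild-type-only peaks lies above that of the transgenic-only peaks. For DP and splenic CD4 the intervals overlap. Each set comes from 1 library and the intervals cover counting error only, so a difference between the genotypes was not tested. The other transgenic lists also shared little among themselves, with 8 DP peaks (0.653%) in splenic CD4 and 46 (3.76%) in splenic CD8. Of the 22 peaks present in both DN3 lists, 13 (59.1%, 36.4 to 79.3) were in another transgenic list.

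Deep transgenic-only peaks were called again in larger shares. Of the 134 with 10 or more fragments, 28 (20.9%, 14.4 to 28.8) were in another transgenic list, and of the 66 with a -log10 q of at least 1.3, 10 (15.2%, 7.51 to 26.1) were. The first-ranked peak, chr2:60240820-60240891, matched a splenic CD4 peak of fold 7.19 whose summit lay 1 bp away. The sixth, chr5:114623112-114623169, was met in both splenic lists, with a fold of 7.19 in CD4 and of 6.25 in CD8 and summits 1 and 0 bp away. The other 4 peaks in 2 further lists, which were picked out after their values were seen, were all shared with DP and splenic CD8; among them chr13:113368418-113368480 had fold 4.61 and 31 fragments and chr11:108872993-108873135 fold 2.69 and 27 fragments. Of the 43 shared peaks, 83.7% lay where the caller's local background was above the level common to the list, against 22.3% of the 2174 that were in no other list. The part of local background in the sharing was not tested.

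The transgenic-only peaks were spread unevenly over the chromosomes, with an excess on chromosome 15. It held 305 of them (13.8%, exact 95% interval 12.3 to 15.3). The same chromosome held 24 of the wild-type DN3 peaks (3.31%, 2.14 to 4.89), 72 of the DP peaks (5.88%, 4.63 to 7.34), 36 of the splenic CD4 peaks (4.41%, 3.11 to 6.06) and 724 of the splenic CD8 peaks (3.57%, 3.32 to 3.84). Per Mb between the first and last peak of any list, chromosome 15 carried 3.05 transgenic-only peaks, and the other chromosomes from 1 to 19 and X carried 0.336 (X) to 1.28 (17), with a median of 0.776. Chromosome 15 was thus at 3.93 times the median of the others. In the other lists the same ratio was 0.951 (wild-type DN3), 1.79 (DP), 1.36 (splenic CD4) and 0.949 (splenic CD8).

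**Figure D3:**
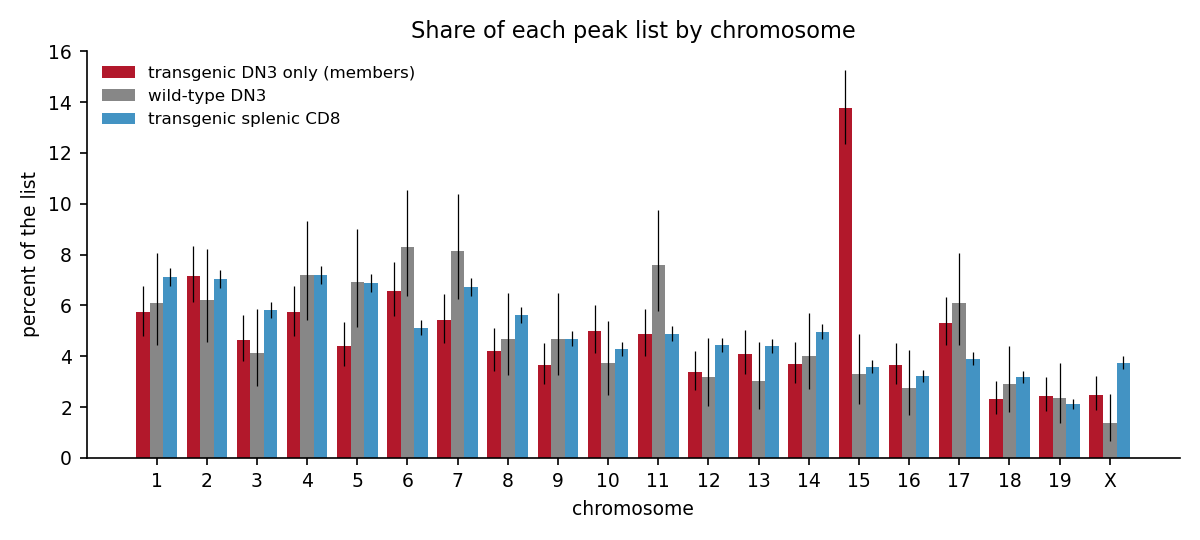
Percent of the transgenic-only peaks (red), the wild-type DN3 peaks (grey) and the transgenic splenic CD8 peaks (blue) on chromosomes 1 to 19 and X, with exact 95% binomial intervals for counting error only. Chromosome 15 holds 13.8% of the transgenic-only peaks, and between 3.31% and 3.57% of the other plotted lists.

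Along chromosome 15 the counts were uneven. Its 10 full windows of 10 Mb held 12 to 45 transgenic-only peaks each, with a median of 30.5. The first window of each chromosome was counted as full, although peaks of any list may begin only some way into it. The first 3 windows of chromosome 15 held 12, 19 and 17. The 245 windows of other chromosomes held 0 to 26 with a median of 7, and 38 of them held 12 or more. The split into the first 3 and the later windows was made after the values were seen. The later 7 windows of chromosome 15 held 28 to 45, more than any window elsewhere. In the wild-type DN3 list the windows of chromosome 15 had a median of 2 peaks, as did the others. The median gap from one transgenic-only peak to the next was 167 kb on chromosome 15 and 636 kb elsewhere.

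**Figure D4:**
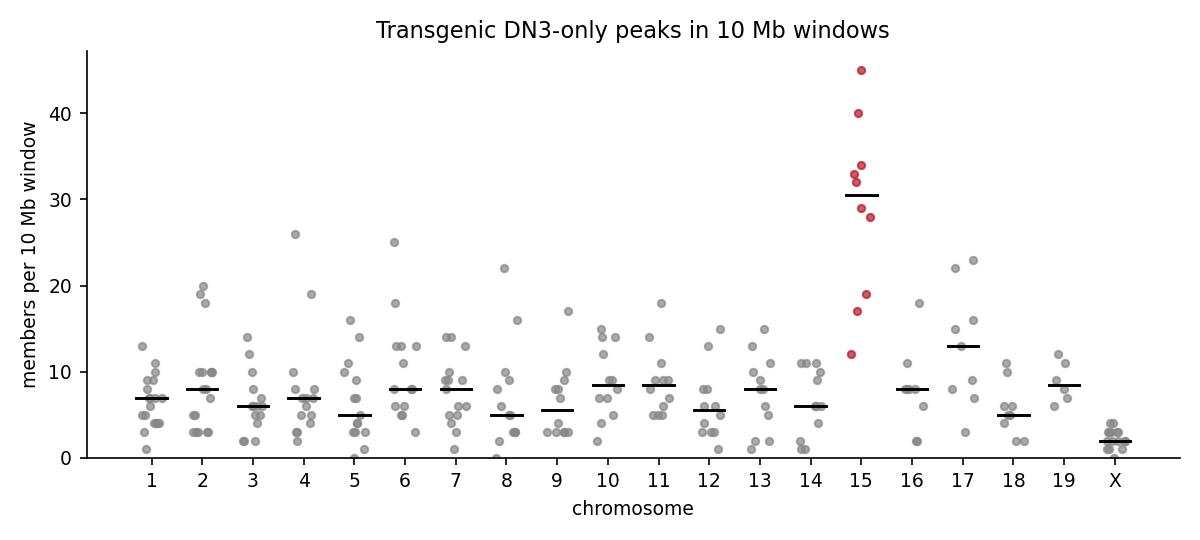
Number of transgenic-only peaks in each 10 Mb window, by chromosome; each point is 1 window, the black bar is the chromosome's median, and chromosome 15 is in red. The 10 red points lie between 12 and 45, 7 of them above all 245 grey points, which lie between 0 and 26.

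Peaks on chromosome 15 were of the shallow kind. Their median fold (3.53) and -log10 p (3.76) equalled those of the 1912 transgenic-only peaks elsewhere, but 285 (93.4%) had 4 to 7 fragments, against 1633 (85.4%) elsewhere, and 6 (1.97%) had 10 or more, against 128 (6.69%). With stricter choices the share of chromosome 15 went from 13.8% of all to 11.5% (43 of 374, 8.45 to 15.2) at a -log10 p of at least 5. It was 6.06% (4 of 66, 1.68 to 14.8) at a -log10 q of at least 1.3, 4.48% (6 of 134, 1.66 to 9.49) at 10 or more fragments, and 2.33% (1 of 43) among peaks found in another transgenic list. These stricter choices were made after the excess had been seen.

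RNA from chromosome 15 was higher in the same cell type. Among 465 tested genes of that chromosome the median log2 fold change was 0.19, with 164 higher (35.3%) and 55 lower (11.8%) in transgenic DN3 cells, whereas the 11509 genes of other chromosomes had a median of -0.04, with 23.0% higher and 22.7% lower. The chromosome 15 median was 0.11 with all RNA groups in 1 fit (others -0.04) and 0.070 without a filter on low counts (others -0.13). Medians of the other chromosomes lay between -0.14 (17) and 0.07 (18). Relative to the rest of each library, the median chromosome 15 gene of the transgenic libraries stood 0.24, 0.22 and 0.25 log2 units above its mean over the wild-type libraries. Each wild-type library, set against the others of its genotype, stood at 0.02, -0.02 and 0.02, so the groups did not overlap. Nor did they overlap on chromosomes 3, 4, 9, 13 and 17, where the transgenic libraries were the lower ones. On chromosome 17 the transgenic libraries stood at -0.133, -0.128 and -0.102 and the wild-type ones at 0.014, -0.096 and 0.053. An exact test on 3 against 3 libraries cannot go below a p of 0.1. Chromosome 15 took 5.59, 5.70 and 5.91% of all counts in the transgenic and 4.92, 4.93 and 4.93% in the wild-type libraries.

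**Figure D5:**
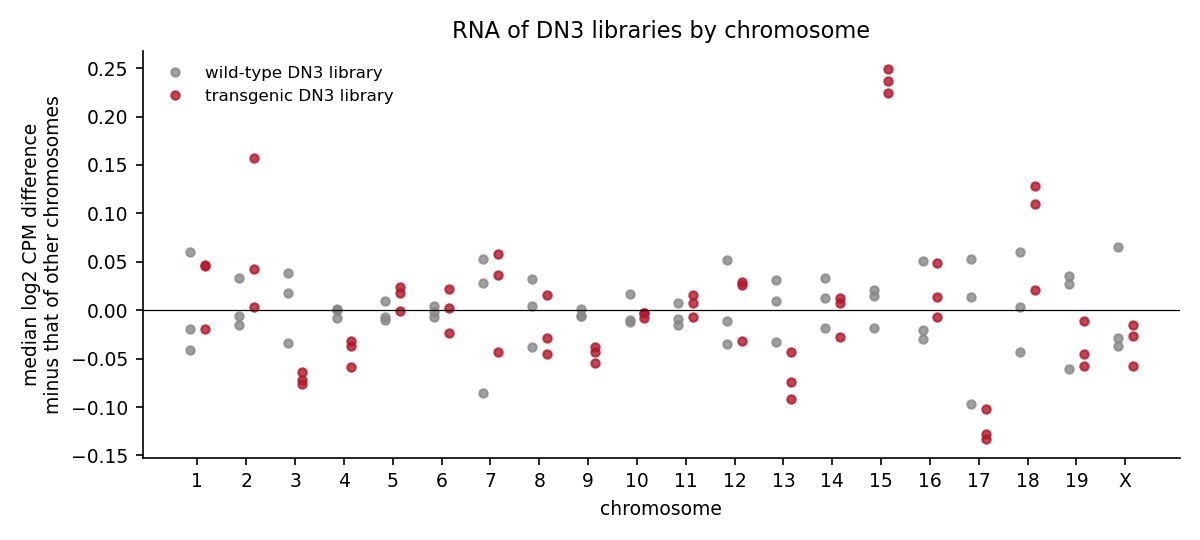
Median difference in log2 CPM of the genes of each chromosome from their mean over the (other) wild-type DN3 libraries, minus that of all other chromosomes, for 3 wild-type (grey) and 3 transgenic (red) DN3 libraries. On chromosome 15 the transgenic libraries lie between 0.22 and 0.25 and the wild-type ones between -0.02 and 0.02; transgenic values of the other chromosomes lie between -0.13 and 0.16.

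Other transgenic thymocytes showed chromosome 15 values that varied more between libraries, at 0.46 to 0.62 in total double-negative cells, 0.04 to 0.66 in DP, 0.46 to 0.66 in CD4 single-positive and 0.02 to 0.59 in CD8 single-positive cells, 3 libraries each. Column headers of some libraries of these stages end in N, which they do not explain, and no DN3 header does. The marked transgenic libraries were the highest of each stage. They stood at 0.62 and 0.59 against 0.46 in double-negative cells and at 0.66 against 0.19 and 0.04 in DP. In CD4 single-positive cells they stood at 0.66 and 0.56 against 0.46, and in CD8 single-positive cells at 0.59 against 0.02 and 0.36. The part of this mark was not tested. Wild-type libraries of these stages stayed between -0.07 and 0.11, with marked ones at 0.11 in DP and 0.02 in CD8 single-positive cells. The lowest transgenic DP (0.04) and CD8 single-positive (0.02) libraries lay inside this range. Other chromosomes also stood apart in single libraries. Chromosome 10 was at 0.29 in a transgenic CD4 single-positive library and chromosome X at -0.33 in a wild-type DP library. Across 20 chromosomes, density of the transgenic-only peaks and median RNA change had a Pearson's r of 0.61 and a Spearman's rho of 0.01; without chromosome 15, r was -0.36 over 19, so the relation rests on that chromosome. ChIP and RNA came from different libraries, and the parts of chromosome number and of the caller's control were not tested.

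A few places held many transgenic-only peaks close together. Taking 3 or more with gaps under 10 kb as a run, a limit set after the values were seen, 15 runs held 84 peaks. The longest, chrX:166410937-166444286, held 17 of low fold (2.20 to 3.89), and 4 wild-type DN3, 20 DP, 10 splenic CD4 and 3 splenic CD8 peaks lay inside it. Runs at chr6:47602738-47629112 (10 peaks) and chr6:47694207-47711975 (6 peaks) held 3 and 5 wild-type DN3 peaks and 31 and 15 splenic CD4 peaks, so these stretches were called in several libraries, wild type included. Of the overlaps with other lists, 5 of 14 with DP, 6 of 12 with splenic CD4 and 3 of 22 with splenic CD8 fell in runs.

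Other runs were found with few or no peaks of other lists. The mitochondrial genome, between positions 39 and 15997, held 16 transgenic-only peaks of fold 2.17 to 5.15, with 0 peaks in wild-type DN3, DP and splenic CD4 and 1 in splenic CD8; all 16 lay over a local background above the common level. The run at chr16:10284554-10288256 was of another kind. Its 3 peaks had folds of 9.26, 9.84 and 10.4, which places its strongest eighth among all transgenic-only peaks, and no wild-type DN3, DP or splenic CD4 peak lay inside it, while 1 splenic CD8 peak did. Runs of 3 at chr5:140684810-140686925 and chr8:125223069-125225908 reached folds of 8.12 and 6.40.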

How the data were processed

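Chromatin was prepared with an enzymatic kit, per the labels' protocols. Deposited peak lists of anti-LMO2 ChIP-seq (5 libraries, 1 per cell type and genotype, with both genotypes only for DN3) were used as the authors gave them. Their columns hold a deposited score (not used further), a deposited ratio of signal over background (fold), and deposited -log10 p and q. Tools listed in the submitters' processing notes, with no role, are MACS2, Bowtie2, HISAT and DESeq2, and the listed builds are mm9 and mm10. Peak names carry mm9. Tool versions, the control of peak calling and the counting tool were not given in the sources used here. An input library of transgenic thymocytes was not analysed here. RNA values are deposited read counts and FPKM by the authors for 19521 genes, with totals of 24493397 to 28439842 in DN3 libraries. The table also holds 4 columns of samples not analysed here.

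Lists were compared by overlaps of at least 1 bp, with exact (Clopper-Pearson) 95% intervals. Fragments at a summit were solved from fold and p, assuming a pseudocount of 1 in the fold and a Poisson p, as MACS2 computes them, with tolerances of 2e-04 in fold and 0.02 in -log10 p. The common background is the level shared by peaks on the repeated folds. The test of DN3 RNA was run on the counts in edgeR 4.0.16 under R 4.3.3 (filterByExpr with minimum count 10 and minimum total 15, TMM, robust quasi-likelihood test, two-sided, Benjamini-Hochberg adjustment, threshold 0.05, 3 against 3 libraries), with DESeq2 1.42.0 as an alternative. CPM are counts scaled by the TMM library size. Chromosomes of genes, without positions, came from RefSeq's GRCm38.p6 table by gene identifier, which placed 11975 of the 12037 genes tested (99.5%). The marker lists (DN3, mast cell, B cell, myeloid; 1 gene is not reported here) and the list of LMO2 partners, like the rule that chose the peaks, were set with earlier results of these data known. Peaks were named by rule: the 10 highest folds and -log10 p, the lowest -log10 p and the largest widths; others are marked as chosen after their values were seen. Scripts were tested on simulated data.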

Additional observations from a re-analysis of the deposited data

How the results depend on the processing

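The number of transgenic-only peaks was 374 at a -log10 p of at least 5 and 66 at a -log10 q of at least 1.3, and stayed within 1.5 times of 2217 under the other rules tried (2158 to 2218 with other overlap rules, 1710 at a -log10 p of at least 3). Overlap with DP, splenic CD4 and splenic CD8 was 1.44%, 1.49% and 3.07% when peaks within 1 kb counted. It was 1.34%, 2.14% and 2.41% for transgenic-only peaks with a -log10 p of at least 5, and 0.271%, 0.271% and 0.226% when the other list was held to that level. With the splenic CD8 list cut to its 816 strongest peaks, overlap with it was 0.180%. The chromosome 15 share was 11.5% and 6.06% at the same p and q levels, and 13.96% to 14.16% on chromosomes 1 to 19, X and Y only, at a -log10 p of at least 3 or without the runs. Of the alternatives for chromosome 15, the one on chromosomes was planned, and all others, RNA included, were added after seeing the data.

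DN3 RNA gave 5497 changed genes, 2644 with all RNA groups in 1 fit, 3802 to 6185 when 1 library was left out, and 5493 to 5794 with RLE factors, no filter or DESeq2. The chromosome 15 median of 0.19 was 0.21 with RLE factors, 0.070 without a filter, 0.11 with all groups in 1 fit, 0.15 with DESeq2 and 0.19 to 0.20 with 1 library left out. The median of the other chromosomes under the first 4 was -0.02, -0.13, -0.04 and -0.04, so chromosome 15 was above it each time. The cause of these shifts was not tested. A replicate block gave 5176 changed genes and a chromosome 15 median of 0.19. Deviations of libraries with the same number correlated at -0.13, 0.04 and 0.18, and those with different numbers at -0.19 to 0.17. With 3 libraries per group these values cannot show whether the numbers pair the samples.

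Each ChIP list is 1 library, and most peaks rest on so few fragments that a missing overlap does not show missing binding. Motifs and genes at the peaks were planned and not run, since no mm9 genome was used here.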
